A study of Mus musculus with 6 samples.

Results

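The transcript levels of 10 interferon-inducible GTPase genes were followed in bone-marrow-derived macrophages (BMDMs), macrophages grown in culture from mouse bone marrow. The genes were taken by name from the 54532 genes in the deposited table: the guanylate-binding proteins Gbp2, Gbp3, Gbp5, Gbp7 and Gbp9, and the immunity-related GTPases Irgm1, Irgm2, Igtp, Iigp1 and Ifi47. All cells came from C57BL/6 wild-type mice and were differentiated in medium conditioned by L929 cells. There were 3 groups of 2 libraries. Untreated cells received neither agent, LPS cells received lipopolysaccharide, a molecule from the outer surface of Gram-negative bacteria, at 100 ng/ml for 2 h, and Met + LPS cells were kept in metformin at 5 mM for 6 h before they were stimulated with LPS in the same way. Metformin, a drug against type 2 diabetes, inhibits complex I of the respiratory chain. No group with metformin alone was analysed here, so that a change against LPS cannot be divided into an effect on resting cells and an effect on the LPS response.

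Both protein families are large GTPases that macrophages make when they sense interferon. Guanylate-binding proteins gather on vacuoles that hold pathogens and on free bacteria, open them, and expose LPS or DNA to inflammasomes, the complexes that activate inflammatory caspases. Immunity-related GTPases fall into regulators and effectors. The regulators, Irgm1, Irgm2 and Igtp (also called Irgm3), sit on the membranes of the cell and keep the effectors inactive there, and effectors such as Iigp1 (Irga6) load onto the vacuoles of parasites and disrupt them. LPS induces these genes to a large part indirectly, through interferon-β that acts back on the cell by way of its receptor, the kinases JAK1 and TYK2, STAT-family factors with IRF9, and newly made IRF1. The data address how far LPS raised each gene within 2 h and how far metformin pretreatment changed that level.

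Promoter sequences were available for 8 of the 10 members in the RefSeq table for GRCm38.p6, which runs from 250 bases before to 50 bases after each annotated start. They were searched on both strands for GAAANNGAAA, the core of the element that interferon regulatory factors recognise, and for TTCNNNGAA, the palindrome that STAT dimers recognise. GAAANNGAAA was present in 7 of the 8 (all but Ifi47) and in 3.44% of all 32851 promoters. TTCNNNGAA was present in 4 of the 8 (Gbp5, Gbp7, Irgm2 and Igtp) and in 8.30% of all promoters. Both were present in these 4 members and in 0.454% of all promoters. The stretches around GAAANNGAAA are shown because 7 of these 8 promoters hold it. A further TTCNNNGAA of Gbp5, from -245 to -237, lies outside the stretch shown. Each is written 5′ to 3′ along the gene, capitals mark the matches, and GAAANNGAAA on the opposite strand reads as TTTCNNTTTC. Gbp3 is shown for the first of its annotated starts. In Gbp3 and Irgm1, 2 overlapping matches of GAAANNGAAA form 1 run of capitals. The windows lie on GRCm38 at chr3:142620592-142620625 (plus strand) for Gbp2, chr3:142559987-142560026 (plus) for Gbp3, chr3:142496757-142496902 (plus) for Gbp5, chr3:142530218-142530304 (plus) for Gbp7, chr11:48871423-48871462 (minus) for Irgm1, chr11:58214890-58214934 (plus) for Irgm2 and chr11:58199499-58199543 (plus) for Igtp.
Gbp2: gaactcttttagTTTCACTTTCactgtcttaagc
Gbp3: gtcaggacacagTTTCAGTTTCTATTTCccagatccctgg
Gbp5: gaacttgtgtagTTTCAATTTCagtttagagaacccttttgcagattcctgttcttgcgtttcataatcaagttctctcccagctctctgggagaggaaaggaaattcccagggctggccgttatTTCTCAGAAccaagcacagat
Gbp7: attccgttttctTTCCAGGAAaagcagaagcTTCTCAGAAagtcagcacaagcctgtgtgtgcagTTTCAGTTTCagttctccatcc
Irgm1: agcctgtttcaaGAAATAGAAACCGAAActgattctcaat
Irgm2: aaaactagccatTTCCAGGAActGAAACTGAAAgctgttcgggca
Igtp: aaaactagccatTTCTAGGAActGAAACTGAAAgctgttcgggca

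The match of GAAANNGAAA nearest to the start began at position -59 in Gbp2, -39 in Gbp3, -165 in Gbp5, -53 in Gbp7, -24 in Irgm1, -64 in Irgm2 and -34 in Igtp. Gbp5 therefore differed from the other 6 by a match more than 100 bases further upstream. The windows of Igtp and Irgm2 were identical at 44 of 45 bases and differed only by T16C, with Igtp's base first and positions counted from 1 at the 5′ end of the window. In both, TTCNNNGAA began 11 bases before GAAANNGAAA, which left 2 bases between them. This arrangement, searched for after it was seen in these members, occurred in 5 of the 32851 promoters, all of immunity-related GTPase genes: Igtp, Irgm2, Tgtp1, Tgtp2 and Gm12185. A match of letters is a description of the sequence and does not show that a factor binds there.

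**Figure D1:**
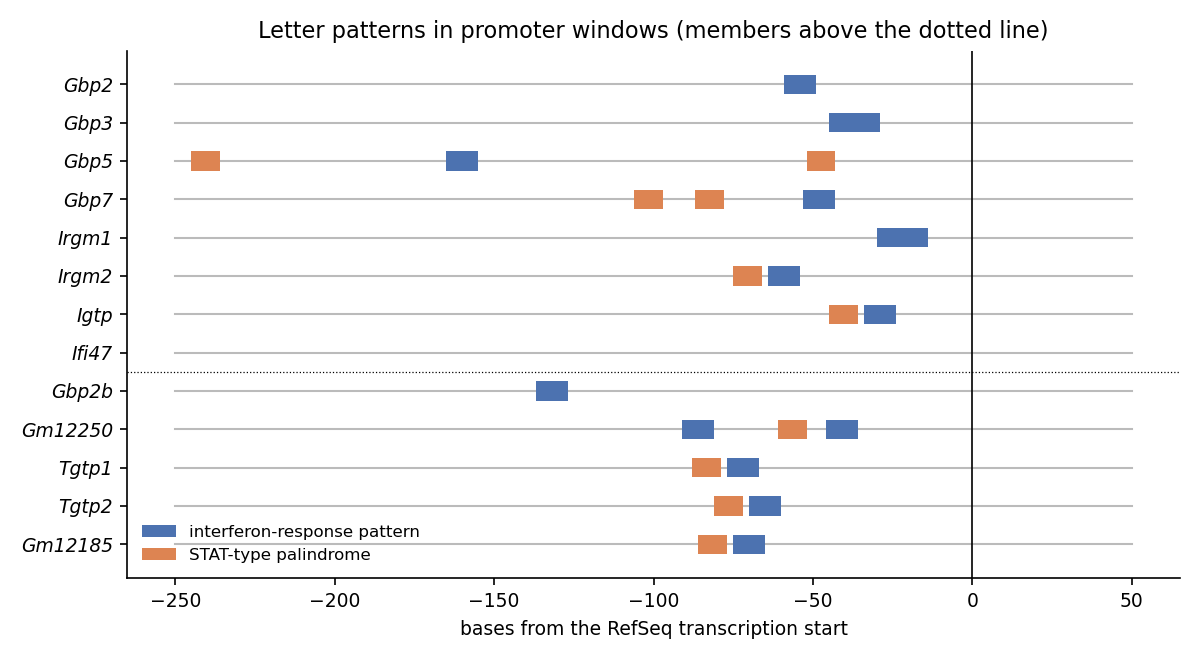
Positions of the 2 letter patterns in the RefSeq promoter windows of 8 members (above the dotted line) and of 5 relatives that hold a match upstream of the start, in bases from the transcription start. Blue bars are GAAANNGAAA and orange bars TTCNNNGAA on either strand; for Gbp3 the first annotated start is used. The orange and blue bars sit at the same spacing in Irgm2, Igtp, Tgtp1, Tgtp2 and Gm12185, and Ifi47 has neither.

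Levels are given as TPM, a unit that divides the reads of a gene by its length and scales every library to the same sum. Taking the smallest step of the values as 1 read, the libraries held 25457016 to 30762754 reads on genes. Changes are log2 fold changes on log2(TPM + 1) from limma, fitted to the 12755 genes that reached 1 TPM in 2 or more libraries. They understate the change of genes with few TPM. A gene was called with an adjusted p under 0.01 (Benjamini-Hochberg) and a log2 fold change of 2 or more in size against untreated cells, or of 0.7 or more for Met + LPS against LPS. The methods state that cells were seeded in duplicate but not whether from separate mice, so that p-values measure only the spread between these libraries. An exact permutation test of 2 against 2 libraries cannot go below p = 0.333, and all calls therefore rest on the spread pooled over genes. The macrophage markers Lyz2, Csf1r and Adgre1 were each at 1224 TPM or more in every library, whereas Cd3e, Cd3d, Cd3g, Ms4a1 and all 5 fibroblast and endothelial markers stayed under 1 TPM. In whole cultures, fewer cells that express a gene and less RNA of that gene per cell cannot be told apart.

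LPS raised the GTPase genes together, by amounts that differed widely. Of the 10 members, 9 passed the filter on low values and 8 of these were called higher in LPS than in untreated cells, against 3.72% of all genes tested (2.37% were called lower). The median log2 fold change of the 9 tested members was 4.92, and that of all genes tested was -0.48. The summed level of the 10 genes was 127 TPM in both untreated libraries and 3236 and 3351 TPM in the LPS libraries.

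Gbp5, which promotes assembly of the NLRP3 inflammasome, had the largest increase among the members. It was at 1.41 and 1.66 TPM in untreated cells and at 889 and 891 TPM after LPS, which made it the most abundant member, having been 8th of 10 at rest. Its TPM means differed 580-fold, and the ratio of single libraries ran from 535 to 634. On the log2(TPM + 1) scale the change was 8.46 ± 0.05 (SE, n = 2 and 2, limma adjusted p = 9.5e-10), and no other member's 95% interval reached it.

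Gbp2, which attacks the vacuoles of Toxoplasma and the membranes of cytosolic bacteria, rose from 12.2 and 11.7 TPM to 827 and 850 TPM. The log2 fold change was 6.02 ± 0.04 (limma adjusted p = 1.1e-09). Gbp3, from the same cluster on the chromosome, rose from 4.95 and 4.66 TPM to 305 and 311 TPM, a change of 5.73 ± 0.05 (limma adjusted p = 1.8e-09). Gbp7, which acts in the delivery of oxidase and autophagy proteins to vacuoles, rose from 3.09 and 2.96 TPM to 117 and 124 TPM, a change of 4.92 ± 0.06 (limma adjusted p = 7.8e-09). In all 3 genes the LPS libraries lay far above the untreated libraries and the pairs of libraries within a group were close to each other.

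Gbp9 stood apart from the other guanylate-binding proteins. It was already at 22.3 and 20.9 TPM in untreated cells, above all 4 of them, and reached 69.6 and 82.9 TPM with LPS, below all 4. The log2 fold change of 1.77 ± 0.08 had a limma adjusted p of 3.2e-06 but lay under the cut-off of 2, so that Gbp9 was the member tested but not called. With libraries rescaled by the median ratio over genes, which moves the median change of all genes from -0.48 to -0.01, its change was 2.27 and it was called.

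Among the regulatory immunity-related GTPases, Irgm2 and Igtp were the most abundant members at rest, and all 3 regulators rose less than every tested member but Gbp9. Irgm2 was at 37.4 and 40.1 TPM in untreated cells and 375 and 383 TPM after LPS, a log2 fold change of 3.26 ± 0.04 (limma adjusted p = 1.1e-08). Igtp rose from 33.0 and 32.5 TPM to 453 and 483 TPM, a change of 3.80 ± 0.04 (limma adjusted p = 4.6e-09). Irgm1, which is known for its role in resistance to mycobacteria and in autophagy, was at 12.1 TPM in both untreated libraries and rose to 91.1 and 95.5 TPM, a change of 2.85 ± 0.04 (limma adjusted p = 1.8e-08). The 95% intervals of these 3 changes did not overlap each other or those of any other member.

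Among the effectors, Iigp1 was near the limit of detection at rest, with 0.801 and 0.895 TPM (35 and 37 reads), and rose to 108 and 130 TPM. Its TPM means differed 140-fold, and its log2 fold change was 6.02 ± 0.09 (limma adjusted p = 1.7e-08). On that scale its interval overlapped those of Gbp2 and Gbp3, whose TPM means differed 70.1-fold and 64.1-fold. Ifi47 (Irgd) did not pass the filter on low values. It had no reads in either untreated library, 2 and 3 reads in the LPS libraries and 3 and 2 reads in the Met + LPS libraries, which are 0.106, 0.166, 0.160 and 0.0914 TPM. Since a library without reads allows a level of up to 3 reads, no change of Ifi47 was detectable in these values. In the annotation, 111 of its 2473 exonic bases also belong to the olfactory receptor gene Olfr56, and 93.6% of its 31-mers occur in no other gene. How reads on shared bases were counted is not given in the sources used here, and the part of this in the low value was not tested.

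**Figure D2:**
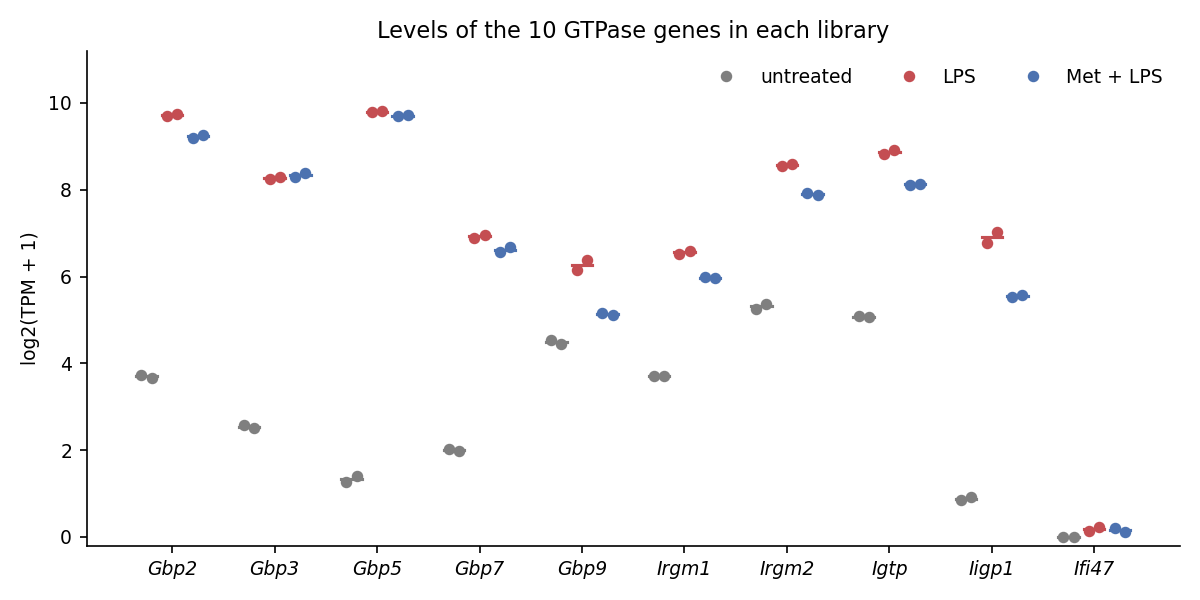
Levels of the 10 genes on the log2(TPM + 1) scale in untreated (grey), LPS (red) and Met + LPS (blue) libraries; points are single libraries, 2 per group, and bars are means of the plotted values. Gbp5 runs from the second lowest level among the tested members at rest to the highest after LPS, and Ifi47 stays near 0 throughout.

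Metformin pretreatment before LPS lowered a subset of these genes and left others near their LPS level. Called lower against LPS were 3 of the 9 tested members (Iigp1, Gbp9 and Igtp), against 4.09% of all genes tested (4.19% were called higher). By the adjusted p alone 7 of the 9 were lower, against 18.0% of all genes tested. In 8 of the 9 both Met + LPS libraries lay below both LPS libraries, against 40.0% of all genes tested. The median change of the 9 was -0.58 and that of all genes tested -0.03. The summed level of the 10 genes was 2480 and 2539 TPM in the Met + LPS libraries, and the mean sum was 76.2% of that in the LPS libraries.

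Iigp1 had the largest decrease among the members. It was at 45.2 and 46.4 TPM with metformin and LPS, compared to 108 and 130 TPM with LPS alone, which left 38.5% of its LPS level (single libraries 34.9% to 42.9%). The log2 fold change was -1.35 ± 0.09 (95% interval -1.56 to -1.14, limma adjusted p = 6.7e-05).

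Gbp9 was at 34.6 and 33.4 TPM, compared to 69.6 and 82.9 TPM, and kept 44.6% of its LPS level. Its log2 fold change was -1.14 ± 0.08 (95% interval -1.34 to -0.93, limma adjusted p = 1.1e-04), and its interval overlapped that of Iigp1 and of no other member. The least induced guanylate-binding protein among the members was thus also the one with the largest decrease among them.

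The 3 regulators changed by similar amounts. Igtp was at 276 and 281 TPM with metformin, 59.5% of its LPS level, with a log2 fold change of -0.75 ± 0.04 (limma adjusted p = 3.7e-05). Irgm2 was at 241 and 234 TPM, 62.6% of its LPS level, with a change of -0.67 ± 0.04 (limma adjusted p = 6.2e-05). Irgm1 was at 62.5 and 61.4 TPM, 66.4% of its LPS level, with a change of -0.58 ± 0.04 (limma adjusted p = 1.0e-04). Their 95% intervals overlapped in this order, and only Igtp passed the cut-off of 0.7. Without the second LPS library its change was -0.70 and just missed the cut-off (limma adjusted p = 5.0e-04, range over all alternatives 1.3e-11 to 0.0010).

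The 4 guanylate-binding proteins of the Gbp2 cluster kept most of their LPS level. Gbp2 was at 587 and 608 TPM, 71.2% of its LPS level, with a log2 fold change of -0.49 ± 0.04 (limma adjusted p = 1.3e-04). Gbp7 was at 93.0 and 102 TPM, 80.7% of its LPS level, with a change of -0.31 ± 0.06 (limma adjusted p = 0.0051). With the untreated libraries, the LPS libraries or the first Met + LPS library left out, each in turn, the limma adjusted p of Gbp7 was 0.0174 to 0.0372, so that 6 rather than 7 members were lower by the adjusted p. The adjusted p of Gbp7 was also above 0.01 with no filter (0.0188), with the compared groups only (0.0158) and without a trend (0.0166).

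Gbp5 and Gbp3 were the 2 members without a change at this threshold. Gbp5 was at 828 and 839 TPM, below the LPS libraries at 889 and 891 TPM, with a change of -0.09 ± 0.05 (95% interval -0.22 to 0.03, limma adjusted p = 0.171). Gbp3 was at 313 and 333 TPM, slightly above the LPS libraries at 305 and 311 TPM, with a change of 0.07 ± 0.05 (95% interval -0.04 to 0.18, limma adjusted p = 0.278). These intervals exclude a decrease of the size seen in Gbp2, Gbp9, Igtp, Irgm1, Irgm2 and Iigp1, each of whose intervals ended below that of Gbp5.

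**Figure D3:**
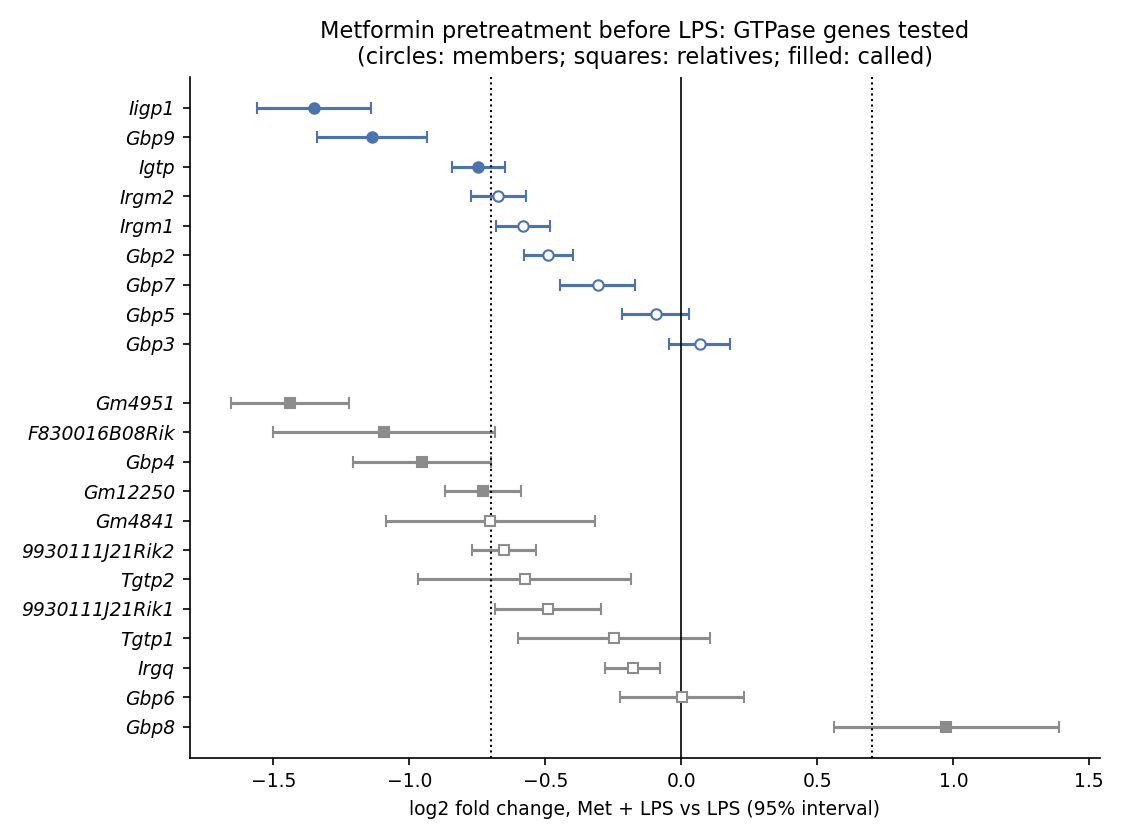
Log2 fold changes of Met + LPS against LPS with 95% intervals for the 9 tested members (blue circles) and their 12 tested relatives (grey squares), each sorted; filled symbols were called and dotted lines mark the cut-offs of -0.7 and 0.7. Iigp1 at -1.35 and Gbp3 at 0.07 are the ends of the member range, and Gbp8 is the only gene shown to the right of the upper cut-off.

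The GTPase genes remained induced under metformin. Against untreated cells 8 of the 9 tested members were called higher in Met + LPS, against 3.18% of all genes tested. This comparison shares its libraries with both others, so its values are given beside theirs and not as separate evidence. The change was 8.37 for Gbp5 (8.46 with LPS alone), 5.80 for Gbp3 (5.73), 5.53 for Gbp2 (6.02), 4.66 for Iigp1 (6.02), 4.61 for Gbp7 (4.92), 3.05 for Igtp (3.80), 2.59 for Irgm2 (3.26) and 2.26 for Irgm1 (2.85). The 1 added to TPM shrinks the change of Iigp1 more than those of Gbp2 and Gbp7. In TPM means, Met + LPS was above untreated cells 54.0-fold for Iigp1, 49.9-fold for Gbp2 and 32.2-fold for Gbp7. Gbp9 changed by 0.63 ± 0.08 (1.77 with LPS alone, limma adjusted p = 4.0e-04 for Met + LPS), which in TPM means is 1.57-fold above untreated cells. The order of abundance shifted accordingly. After LPS alone, Igtp and Irgm2 lay above Gbp3 in both libraries, and after metformin and LPS, Gbp3 lay above both.

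**Figure D4:**
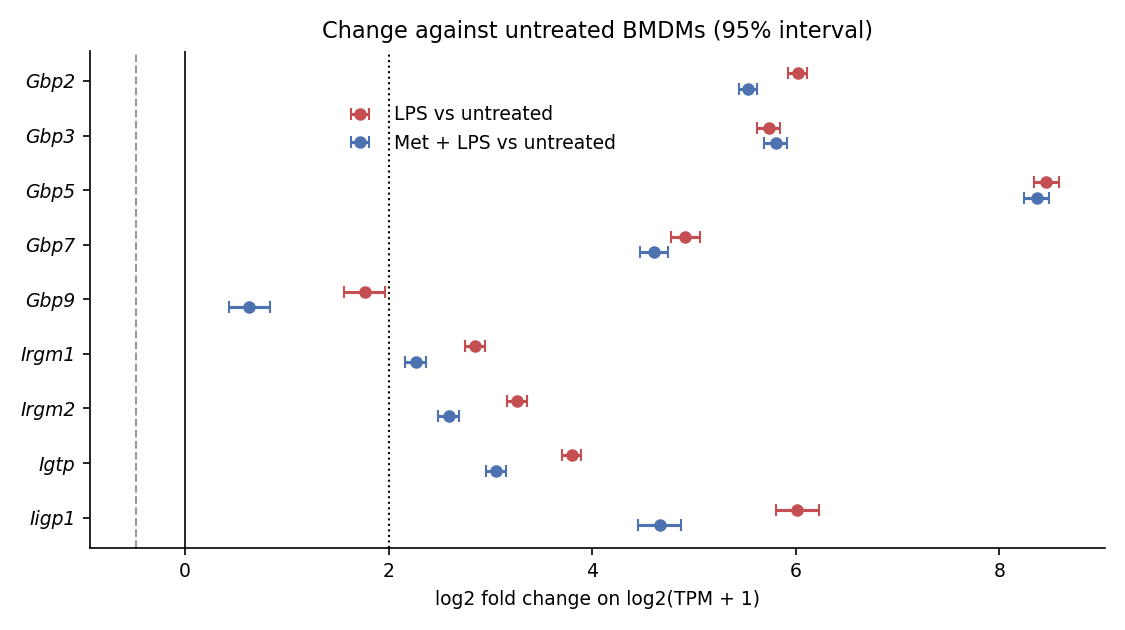
Log2 fold changes against untreated cells for LPS (red) and Met + LPS (blue), with 95% intervals, for the 9 tested members; the dotted line marks the cut-off of 2 and the dashed line the median of all genes with LPS (-0.48). The blue points lie left of the red ones except in Gbp3, and in Gbp3 and Gbp5 the intervals overlap.

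The relatives outside the 10 genes were compared by lists chosen with earlier results of these data known. Of 6 other guanylate-binding proteins 3 passed the filter, and 2 of these were called higher with LPS. Gbp6 was at 0.133 and 0.258 TPM at rest and 10.0 and 10.4 TPM with LPS, and was at 9.75 and 10.8 TPM with metformin (0.00 ± 0.09). Its values are uncertain, since 25.7% of its 31-mers occur in no other gene and 67.8% are shared with Gm43302. Gbp4, which shares first-exon bases with Gbp9 and Gbp8, was at 8.13 and 9.07 TPM with LPS and 3.78 and 4.13 TPM with metformin, and was called lower (-0.95 ± 0.10, limma adjusted p = 5.6e-04). Gbp8 went the other way. It was at 1.80 and 2.23 TPM at rest, 0.839 and 1.51 TPM with LPS and 3.27 and 3.18 TPM with metformin and LPS, and was called higher against LPS (0.97 ± 0.17, limma adjusted p = 0.0040), on 22 to 97 reads per library.

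Of 11 other immunity-related GTPases, 9 were tested, of which 2 were called higher with LPS and 3 lower with metformin. The median changes of the 9 were 1.34 with LPS and -0.65 with metformin. Gm12250 (Irgb10), an effector that attacks bacterial membranes downstream of guanylate-binding proteins, rose from 22.6 and 22.0 TPM to 572 and 628 TPM with LPS (4.69 ± 0.06). With metformin it was at 375 and 347 TPM (-0.73 ± 0.06, limma adjusted p = 1.5e-04), 60.2% of its LPS level. The annotation lists Gm12250 as a processed pseudogene of 1274 exonic bases, and its values cover only these bases. Gm4951 rose from 3.53 and 2.96 TPM to 22.2 and 24.6 TPM with LPS and was at 8.15 and 7.82 TPM with metformin (-1.44 ± 0.09, limma adjusted p = 6.0e-05). F830016B08Rik was at 1.67 and 2.08 TPM with LPS and 0.281 and 0.411 TPM with metformin (-1.09 ± 0.17, limma adjusted p = 0.0024). The values of Tgtp1 and Tgtp2, near-identical genes with 15.6% and 9.46% of their 31-mers in no other gene, are uncertain because reads could be split between them or dropped. The same holds for 9930111J21Rik1 and 9930111J21Rik2 (11.1% and 29.4%), named after their values were seen. These genes changed by 0.02 and 0.06 with LPS, and by -0.49 and -0.65 for Met + LPS against LPS. The median of -0.65 given above is the value of 9930111J21Rik2. In TPM means, both were at 0.68-fold and 0.65-fold of untreated cells in Met + LPS.

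The genes lie in clusters, and the metformin changes are given here by chromosome. This grouping was noticed after the values were seen, and differences between chromosomes or clusters were not tested. On GRCm38, Gbp5, Gbp7, Gbp3 and Gbp2 lie in this order between positions 142493978 and 142638008 of chromosome 3, and their changes with metformin ran from -0.49 to 0.07. Irgm1 lies at 48861968 to 48871683 of chromosome 11 on the minus strand, Ifi47 at 49076587 to 49096974, and Igtp (58199556 to 58207591) and Irgm2 (58199618 to 58222782) overlap on its plus strand. The log2 fold changes of the 8 tested GTPase genes of chromosome 11 lay between -0.75 (Igtp) and -0.25 (Tgtp1, on 0 to 59 reads per library). These genes lie at separate sites around Irgm1 and around Igtp. The 2 called, Igtp and Gm12250 (58187739 to 58189012), lie at the latter. Gbp9 lies at 105077630 to 105139539 of chromosome 5, where the 4 tested genes ran from -1.14 (Gbp9) to 0.97 (Gbp8). Iigp1 lies at 60376029 to 60392627 of chromosome 18, where the 4 tested genes (Iigp1, Gm4951, F830016B08Rik and Gm4841) had values of -1.44 to -0.70 and the first 3 were called. Gm4841, at -0.70, had 0 to 38 reads per library. All 10 members are annotated as protein-coding genes, and the values cover their exons together. Igtp and Irgm2 share 162 exonic bases, 8.01% of Igtp and 4.39% of Irgm2, and 637 exonic bases of Gbp7 (11.3%) also belong to the pseudogene Gm43802. Between 81.7% (Gbp9) and 97.1% (Irgm1) of the 31-mers of a member occurred in no other gene, so that part of the reads of Gbp9, Igtp (84.1%) and Gbp7 (85.3%) could have been assigned elsewhere, which was not tested.

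Upstream of the GTPases, the interferon ligand moved opposite to most of them. Ifnb1, which encodes interferon-β, was at 0.351 and 0 TPM in untreated cells, 148 and 182 TPM with LPS and 738 and 686 TPM with metformin and LPS. It was called higher with LPS (7.15 ± 0.15) and again with metformin (2.11 ± 0.15, limma adjusted p = 1.1e-04). Ifng, which encodes interferon-γ, had no reads in any library, which allows up to 3 reads in each. The receptor genes Ifnar1, Ifnar2 and Ifngr2 were lower with metformin by the adjusted p, by 0.43 to 0.53, within the cut-off, and were named after their values were seen. Ifnar1 was at 166 and 161 TPM with LPS and 116 and 111 TPM with metformin (-0.53 ± 0.04, limma adjusted p = 1.1e-04).

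Of 12 signal transducers and factors 4 were called higher with LPS, with the largest changes in Irf1 (4.81 ± 0.04), Jak2 (4.26 ± 0.03) and Batf2 (3.46 ± 0.11). With metformin 2 of the 12 were called lower and 9 were lower by the adjusted p (18.0% of all genes tested), with a median of -0.31. Batf2, a partner of IRF1 in macrophages, fell from 57.5 and 67.5 TPM to 29.2 and 28.3 TPM (-1.09 ± 0.11, limma adjusted p = 4.6e-04). Irf8, a lineage factor of macrophages, fell from 211 and 261 TPM to 134 and 123 TPM (-0.87 ± 0.10, limma adjusted p = 5.7e-04). Irf1 itself stayed high, at 898 and 882 TPM compared to 1054 and 1073 TPM (-0.26 ± 0.04, limma adjusted p = 0.0019).

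Of 6 feedback inhibitors 3 were called higher with LPS and 2 lower with metformin, and 5 were lower with metformin by the adjusted p (18.0% of all genes tested). Socs1, an inhibitor of JAK kinases, was at 88.0 and 103 TPM with LPS and 52.6 and 55.1 TPM with metformin (-0.81 ± 0.12, limma adjusted p = 0.0019), and Usp18, which blocks the type I interferon receptor, was at 239 and 271 TPM and then 147 and 148 TPM (-0.78 ± 0.07, limma adjusted p = 2.3e-04). Of 6 genes of the non-canonical, AIM2 and NLRP3 inflammasomes, on which guanylate-binding proteins act, 2 were called higher with LPS (Casp4 and Nlrp3) and 2 lower with metformin. By the adjusted p 5 were lower with metformin (18.0% of all genes tested), all but Nlrp3 (-0.01 ± 0.05, limma adjusted p = 0.855). Pycard, the inflammasome adaptor, was at 30.3 and 30.9 TPM with LPS and 15.4 and 15.5 TPM with metformin (-0.94 ± 0.04, limma adjusted p = 2.0e-05), and Gsdmd, the pore-forming substrate of caspases, was at 192 and 208 TPM and then 120 and 116 TPM (-0.76 ± 0.05, limma adjusted p = 8.0e-05).

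The 10 other interferon-induced genes were all called higher with LPS, with a median of 6.60, the largest changes on the log2(TPM + 1) scale being in Cxcl10 (9.53 ± 0.04), Rsad2 (7.42 ± 0.05) and Mx1 (7.35 ± 0.05). The pseudocount of 1 shrinks the change of Cxcl9 (7.21 ± 0.09), a gene named here after its values were seen, which was at 0.131 and 0.185 TPM at rest and whose TPM means differed 1080-fold, compared to 826-fold for Cxcl10. The resting levels of Cxcl9 are 3 and 4 reads. Ratios of single libraries ran from 838 to 1422 for Cxcl9 and from 785 to 869 for Cxcl10, so these genes cannot be ranked by them. With metformin the median of the 10 genes was -0.21, compared to -0.58 for the GTPase members, and the difference between the lists was not tested. Cxcl9, a chemokine known as a target of interferon-γ, was called lower, from 155 and 186 TPM to 67.9 and 69.3 TPM (-1.30 ± 0.09, limma adjusted p = 7.6e-05). By the adjusted p alone 4 of the 10 were lower (18.0% of all genes tested) and 1 was higher (1855 of the 12755 genes tested). The latter was Ifit1, named after its values were seen, at 3657 and 3606 TPM with LPS and 4358 and 4296 TPM with metformin (0.25 ± 0.03, limma adjusted p = 6.8e-04).

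The ATG8 proteins and the genes that conjugate them to membranes are needed to target GTPases to vacuoles. The median change of these 10 genes was -0.52 with LPS, compared to -0.48 for all genes tested, with Atg12 the lowest (-1.09), and 0.00 with metformin. By the adjusted p alone 4 of the 10 were higher with metformin (Atg5, Atg7, Atg12 and Gabarapl1, between 0.24 and 0.46) and 1 was lower (Map1lc3b, -0.27). Of the 12755 genes tested, 1855 were higher and 2301 lower by the same rule. These ATG genes all lay within the cut-off and were named after their values were seen.

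**Figure D5:**
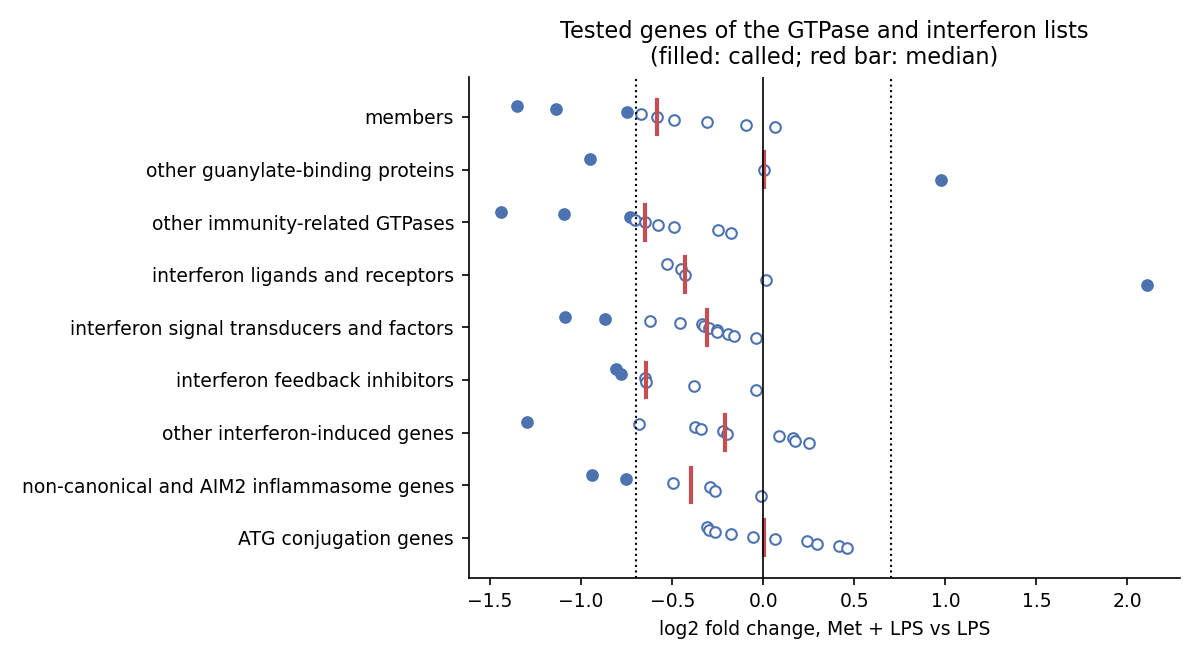
Log2 fold changes of Met + LPS against LPS for the tested genes of 9 lists; each point is 1 gene, filled points were called, red bars are list medians and dotted lines mark the cut-offs of -0.7 and 0.7. The medians of the members (-0.58) and of the other immunity-related GTPases (-0.65) lie left of that of the other interferon-induced genes (-0.21), and the point at 2.11 is Ifnb1.

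Markers of cell identity moved with the groups to some extent. The summed level of 8 macrophage markers was 43848 and 45741 TPM in untreated cells, 35276 and 34538 TPM with LPS and 28775 and 28896 TPM with metformin and LPS, most of it Lyz2. The median change of the 8 with LPS was -0.36, a smaller decrease than the -0.48 of all genes tested. For Met + LPS against LPS it was -0.32, compared to -0.03 for all genes tested. With metformin 5 of the 8 were lower than with LPS by the adjusted p (18.0% of all genes tested). Fcgr1 was called lower, from 153 and 177 TPM to 74.9 and 73.8 TPM (-1.14 ± 0.07, limma adjusted p = 5.1e-05). The 7 markers of neutrophils and their precursors summed to 22.2 and 22.8 TPM at rest, 11.1 and 16.7 TPM with LPS and 22.7 and 23.3 TPM with metformin, most of it Elane, with Ly6g at 0 in all but 1 library. The 8 markers of T and NK cells summed to 3.03 to 7.05 TPM in every library, nearly all of it Cd4, the 5 of B cells to 0.766 to 3.18 TPM, the 5 of dendritic cells to 0.652 to 2.97 TPM and the 5 of fibroblasts and endothelium to 0.596 to 1.06 TPM. The part of the shift in macrophage markers in the GTPase results was not tested.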

How the data were processed

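RNA was measured in 6 libraries of BMDMs, 2 per group. The authors enriched poly-A RNA, aligned single-end reads to GRCm38 with STAR 2.6.1d, counted them per gene with featureCounts (Subread 1.6.3; SAMtools 1.9 per the submitters' processing notes) and deposited TPM values. How TPM was computed, and how reads on shared bases or with several alignments were counted, is not given in the sources used here. Groups came from the sample labels. The members and the gene lists were chosen with earlier results of these data known, and support from them is not independent. By the naming rule, all 10 members are given, and from the other lists genes called in at least 1 comparison, with at most 3 of the largest changes per list and comparison, and genes whose level a member's is set beside; other genes are said to be named after their values were seen.

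TPM multiplied by exon length (GENCODE annotation of the same build, 54495 of 54532 genes matched) gave whole multiples of a common step, within 0.05, for 96.4% to 96.6% of values above 0. These multiples were taken as reads, and limits from them cover counting error only. The 2 libraries of a group differed by more than sampling noise (chi-square per degree of freedom 1.94 to 3.63).

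The main test was limma (version 3.58.1, R version 4.3.3) on log2(TPM + 1) for genes that reached 1 TPM in 2 or more libraries, using lmFit and eBayes with a trend, all 6 libraries in 1 fit with 3 residual degrees of freedom, no covariate, and Benjamini-Hochberg adjustment. The study's cut-offs were used, and those for LPS were also applied to Met + LPS against untreated. The test was run on simulated reads with known changes in Met + LPS only and the same spread for all genes. That setting is simpler than these data and holds no change with LPS. Tables and plots were made with Python, pandas and matplotlib. Alternatives were no filter, a minimum of 5 TPM, a pseudocount of 0.1, median-ratio scaling, the compared groups only, the replicate number as a block, no trend, an adjusted p of 0.05, a fold cut-off of 1, non-overlapping libraries, voom on the recovered reads and leaving out each library.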

Additional observations from a re-analysis of the deposited data

How the results depend on the processing

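The counts of called members were 8 to 9 for LPS against untreated, 2 to 3 for Met + LPS against LPS and 8 in every alternative for Met + LPS against untreated, over 51 recomputed counts. Of 378 recomputed member changes, 376 kept their direction and their side of the threshold and none reversed. The exceptions were Gbp9 with LPS, called with median-ratio scaling (2.27, limma adjusted p = 1.3e-06), and Igtp with metformin, not called without the second LPS library (-0.70). With a fold cut-off of 1, Igtp was also not called. Across all genes, the LPS calls depended on scale and cut-off. In the values reported 474 were higher and 302 lower, compared to 663 and 129 with median-ratio scaling and 697 and 815 with a pseudocount of 0.1. They were 718 and 877 with voom, and 1082 and 2474 with a cut-off of 1. For Met + LPS against untreated the calls were 406 and 276, 571 and 98 with median-ratio scaling, 609 and 848 with a pseudocount of 0.1, 628 and 934 with voom, and 962 and 2752 with a cut-off of 1. For Met + LPS against LPS they were 534 and 522, and 257 and 198 with a cut-off of 1. The cut-off of 1 was applied to the same fit, so its counts differ by definition. A pseudocount of 0.1 shrinks the changes of genes with few TPM less than a pseudocount of 1. The causes of the other shifts were not tested.

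No shared effect of the replicate number was detected across the groups. The deviations of same-numbered libraries from their group means correlated at -0.004 (untreated and LPS), 0.028 (untreated and Met + LPS) and 0.006 (LPS and Met + LPS). Whether same-numbered libraries came from the same mouse or culture cannot be told from these values. With the replicate number as a block, 8, 3 and 8 members were called in the 3 comparisons, the same counts as without it, and all genes called for Met + LPS against LPS were 1044 rather than 1056. Reads limit Ifi47 (0 to 3 per library), and Gbp8, F830016B08Rik, Tgtp1, Tgtp2 and Gm4841, with fewer than 100 reads per library.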
